A study of Rattus norvegicus with 4 samples.

Results

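Wnt proteins are secreted signals, and their extracellular control was examined here through 10 genes: the ligands Wnt4 and Wnt5a, the secreted antagonists Sfrp1, Sfrp2, Sfrp4, Frzb, Wif1, Dkk1 and Dkk3, and the target gene Axin2. The genes were taken by name, and every non-control probe on the array that carries one of these names was included. This gave 14 probes of 41012, and 10 of 35658 gene names. Sfrp2 and Sfrp4 have 3 probes each, and the other 8 genes have 1 each.

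The cells were olfactory ensheathing cells, the glia around the sensory axons that run from the nose to the brain, grown in culture from olfactory mucosa and from olfactory bulb by 1 protocol. The rats were male and of the Fischer strain, and the labels give no age. Each of 4 arrays compared 1 mucosa culture, labelled with Cy5, with 1 bulb culture, labelled with Cy3, as a biological replicate in a paired design. The mRNA was amplified by PCR before labelling, and the dyes were never swapped, so tissue and dye cannot be told apart.

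Values are log2 ratios of mucosa over bulb, so that 1 unit is a doubling and a negative value means a lower level in mucosa cells. Errors are SDs over the 4 arrays. A gene is called where the adjusted p from limma, over all 31897 gene names tested, is under 0.05. By that rule 6.62% of all names were called, 3.23% higher and 3.38% lower in mucosa cells, and the median ratio of all names was 0.01. Between 82.8% and 91.1% of spots were well above background in the mucosa channel, against 88.4% to 89.5% in the bulb channel. No spot was saturated.

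All 9 measured markers of ensheathing and Schwann glia were well above background on all 4 arrays in both channels. The same held for every measured marker of fibroblasts, meninges, smooth muscle and pericytes, and epithelium. Detection alone therefore does not set the glia apart. The glia markers summed to 13180 to 14700 in mucosa cells, against 34020 to 44490 in bulb cells, and 6 of the 9 were lower in mucosa cells. Fibroblast markers summed to 254300 to 292000 in mucosa cells, against 102800 to 148400 in bulb cells, with 4 of 9 higher and 2 lower in mucosa cells. Meningeal markers summed to 3293 to 4407 in mucosa cells, against 9708 to 16360 in bulb cells, with 3 of 6 lower in mucosa cells. Smooth muscle and pericyte markers summed to 90040 to 103300 in mucosa cells, against 16390 to 27470 in bulb cells, with 3 of 5 higher in mucosa cells. Epithelial markers summed to 8463 to 14430 in mucosa cells, against 2622 to 4031 in bulb cells, with 1 of 4 higher and 1 lower. Neuronal markers summed to 964.5 to 1531 in mucosa cells, against 3608 to 4182 in bulb cells, with 2 of 5 lower in mucosa cells. Sums of astrocyte markers were 2099 to 2466 in mucosa cells, against 2406 to 3378 in bulb cells, with 2 of 6 lower, and endothelial markers had 1 of 4 called in each direction. The part of these cell types in the Wnt results was not tested. In RNA from whole cultures, fewer cells of a type and less RNA per cell cannot be told apart.

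Wnt ligands bind Frizzled receptors and their co-receptors on the cell surface. In the canonical branch this stabilises beta-catenin, which enters the nucleus with TCF and LEF factors and switches on target genes, while other branches act on cell shape and movement. Secreted Frizzled-related proteins and Wif1 bind the ligands themselves, Dickkopf proteins act mainly at the co-receptors, and Axin2 is a target that feeds back to limit the pathway. In the olfactory system, Wnt signalling is known for its part in the growth of sensory axons toward the bulb and in the renewal of the epithelium.

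Axin2, part of the complex that degrades beta-catenin and a widely used readout of canonical signalling, was lower in mucosa cells. The 60 bases of its probe are printed because the call rests on this sequence alone. They lie at chr10:98321105-98321164 in the rn4 build and are given 5′ to 3′ as the array lists them.
Axin2 A_44_P262371: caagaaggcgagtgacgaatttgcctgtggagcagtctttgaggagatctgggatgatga
The normalised signal of Axin2 was 816, 993, 569 and 803 in mucosa cells on arrays 1 to 4, against 1551, 1853, 1805 and 1739 in bulb cells. All mucosa signals lay below all bulb signals. The log2 ratios were -0.93, -0.90, -1.67 and -1.12, with a mean of -1.15 ± 0.36 (SD, n = 4) and a 95% interval of -1.70 to -0.61. This is a level 2.22-fold lower in mucosa cells, with a limma adjusted p of 0.0365. The direction was the same on each of the 4 arrays and the SD was below that of most names, larger than that of 28.2% of them. The call is a narrow one: with any 1 of the 4 arrays left out, the ratio stayed between -1.24 and -0.98 but the limma adjusted p was 0.0997 to 0.117. It was also not called with the scanner software's own processed signals (0.0686) or with median centring in place of loess (0.0580).

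Dkk3 was the 1 member called higher in mucosa cells. It encodes a secreted relative of the Dickkopf antagonists whose effect on Wnt signalling differs between cell types. Its signal was 6470, 5572, 6337 and 3135 in mucosa cells, against 1179, 937, 1334 and 1862 in bulb cells. The groups did not overlap, and array 4 had both the lowest mucosa signal and the highest bulb signal. The log2 ratios were 2.46, 2.57, 2.25 and 0.75, with a mean of 2.01 ± 0.85 (SD, n = 4). Dkk3 was thus 4.02-fold higher in mucosa cells, with a limma adjusted p of 0.0255. Without replicate 1, 2 or 3 its adjusted p was 0.107, 0.104 and 0.0785, and its ratio was 1.82 to 1.93.

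Dkk1, the founding Dickkopf antagonist, which blocks the Wnt co-receptors, had the same sign as Dkk3 on all arrays but did not pass the test. Its signal was 327, 220, 243 and 166 in mucosa cells, against 127, 139, 143 and 153 in bulb cells. The groups did not overlap, though the 2 signals of array 4 were close. The ratios were 1.36, 0.66, 0.76 and 0.12, and the mean of 0.73 ± 0.51 (SD, n = 4) had a limma adjusted p of 0.158. By the deposited ratio the mean was 1.20 ± 0.77. On each array the ratio of Dkk3 was above that of Dkk1, by 1.28 ± 0.55 on the log2 scale. By the deposited ratio the mean of Dkk3 was 2.08, so its gap to Dkk1 was smaller there. This pair of genes was compared after the values were seen.

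**Figure D1:**
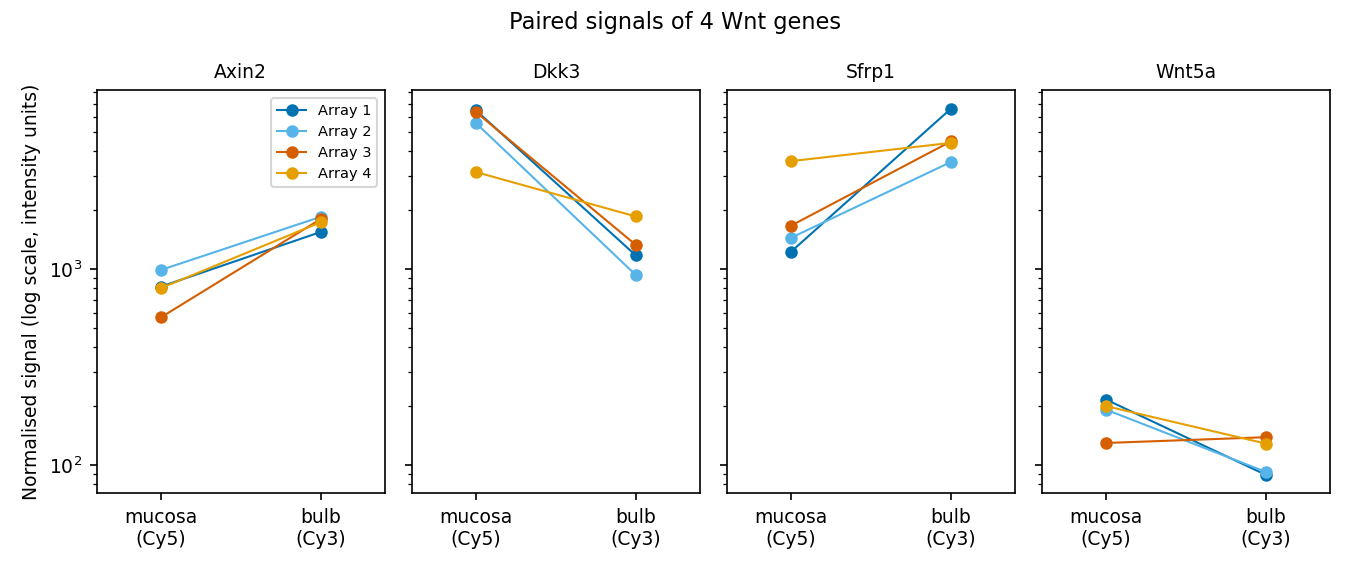
Normalised signal (log scale, intensity units) of Axin2, Dkk3, Sfrp1 and Wnt5a in mucosa cells (Cy5) and bulb cells (Cy3), with a line for each of 4 arrays. All lines of Axin2 and Sfrp1 are higher on the bulb side, all lines of Dkk3 are higher on the mucosa side, and Wnt5a is dim in both channels.

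Over the 10 genes, 1 was called higher and 1 lower in mucosa cells, beside 6.62% of all names called in either direction. With 10 genes this count is too small to set the group apart from the rest of the array. The median ratio of the 10 was -0.28, against 0.01 over all names. By role, 0 of 2 ligands, 1 of 7 antagonists and the 1 target gene passed. In all, 5 of the 10 had 1 sign on all arrays, 3 higher and 2 lower in mucosa cells, and the share over all names was 33.6%.

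**Figure D2:**
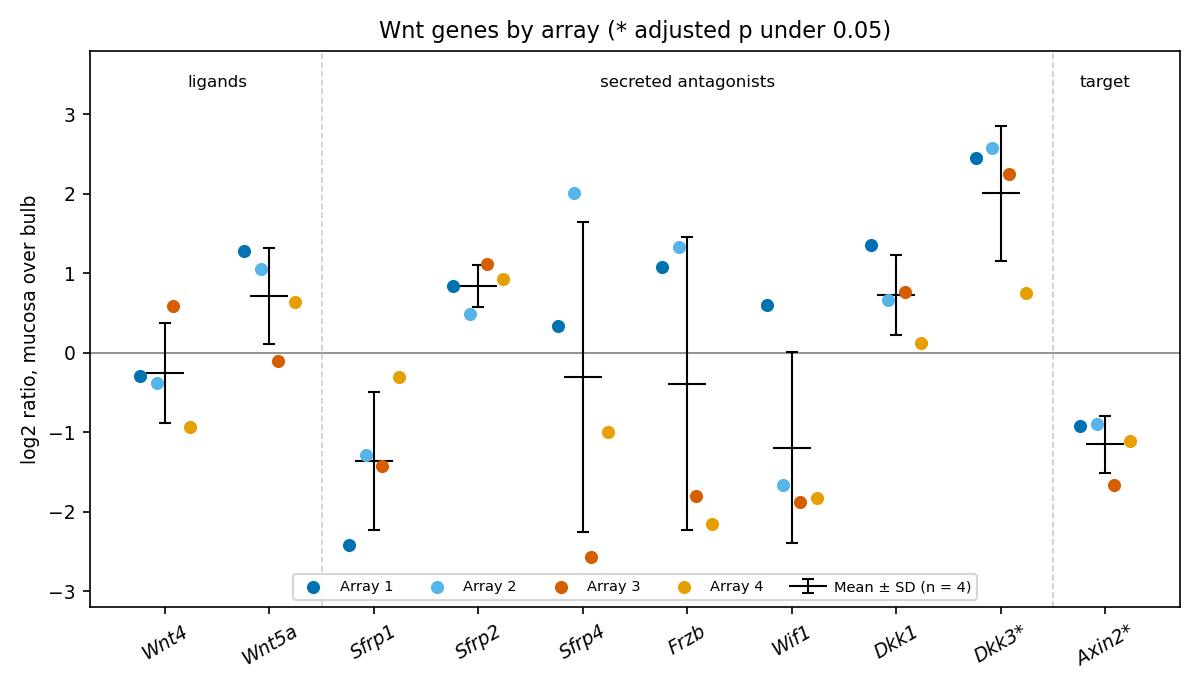
Log2 ratio of mucosa over bulb for the 10 Wnt genes on each of 4 arrays (points), with the mean and SD (bars), grouped as ligands, secreted antagonists and target. Axin2 and Dkk3, marked with asterisks, passed the test, and the points of Sfrp4 and Frzb lie on both sides of 0.

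Sfrp2, a secreted Frizzled-related protein, was measured by 3 probes that agree in direction and differ in size. Their sequences are printed because the ratio depends on which of them is read. The brightest probe lies at chr2:175485829-175485888 in rn4 and holds 51.7% G and C. The other probes start 828 and 900 bases further along, at chr2:175486657-175486716 and chr2:175486729-175486788, and hold 25.0% and 31.7% G and C. Of each of these the first 30 of 60 bases are given. All are written 5′ to 3′ as the array lists them.
Sfrp2 A_44_P1036291: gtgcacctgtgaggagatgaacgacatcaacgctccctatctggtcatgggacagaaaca
Sfrp2 A_44_P503116: atacagtttataaatcaacgagtattttaa
Sfrp2 A_44_P503115: ttttttcttcaaactaaatcattgtagcta
The brightest probe had a signal of 2522, 1313, 1656 and 1418 in mucosa cells, against 1414, 933, 764 and 748 in bulb cells. The mucosa signal was the higher one on each array, while the groups overlapped because array 1 was bright in both channels. Its ratios were 0.84, 0.49, 1.12 and 0.92, and the mean of 0.84 ± 0.26 (SD, n = 4) missed the threshold with a limma adjusted p of 0.0707.

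Both other Sfrp2 probes stood well above background on all 4 arrays in mucosa cells and on 0 in bulb cells. Probe A_44_P503115 had a signal of 622, 366, 472 and 709 in mucosa cells, against 71.0, 73.3, 71.4 and 75.7 in bulb cells. Probe A_44_P503116 had 443, 209, 299 and 341 in mucosa cells, against 76.6, 68.8, 72.8 and 71.95 in bulb cells. The bulb signals were too dim for a measured level on every array, so the fold could not be measured. Set against the lowest signals of probes well above background, mucosa cells were 7.11-fold higher at A_44_P503115 and 4.22-fold higher at A_44_P503116. These folds are not strict lower bounds. The bulb signals of Wnt5a, all 89.5 or more, were well above background on only 2 arrays, so brighter signals can also go undetected.

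Both probes passed the filter on dim signals through the mucosa channel alone, so that a difference was built into their being tested. The limma fit of all 36749 single probes called 6.54% of them, 3.13% higher and 3.42% lower in mucosa cells. It gave these 2 Sfrp2 probes limma adjusted p of 0.00330 and 0.00693, printed here beside the folds and not as separate support. By the deposited ratio, which has no offset, the same 2 probes stood at 6.73 ± 0.59 and 5.77 ± 0.70 on the log2 scale, so their size depends on how a signal near background is treated. The brightest probe is the 1 probe of Sfrp2 that was measured in both channels, and it was not called. With median centring in place of loess it was called (1.06, limma adjusted p = 0.0410).

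**Figure D3:**
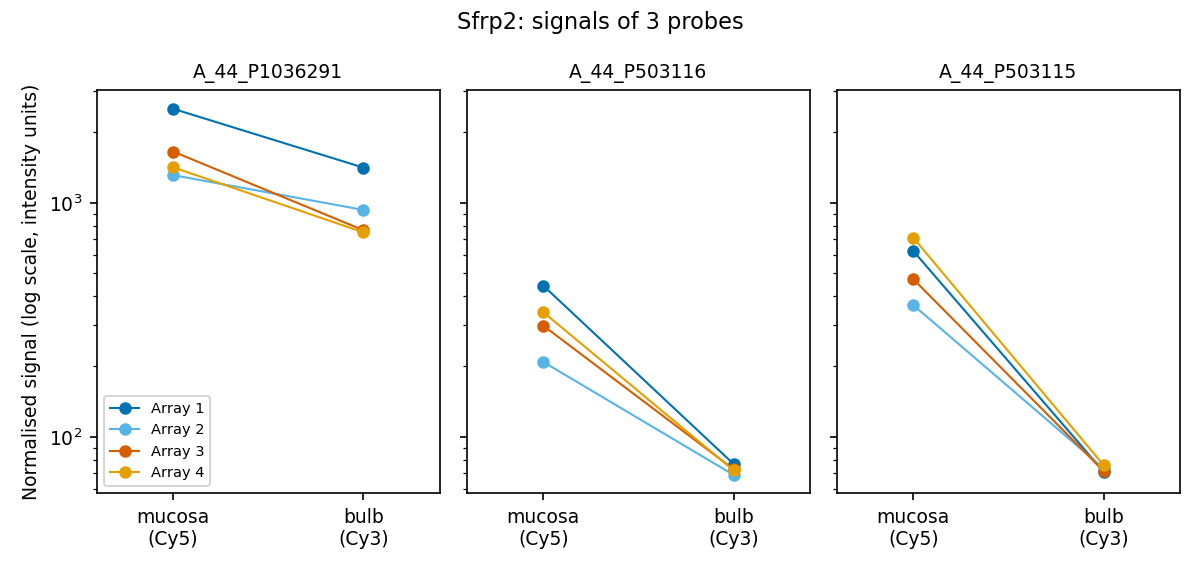
Normalised signal (log scale, intensity units) of the 3 Sfrp2 probes in mucosa cells (Cy5) and bulb cells (Cy3), with a line for each of 4 arrays. A_44_P1036291 is bright in both channels, while A_44_P503116 and A_44_P503115 have bulb signals between 68.8 and 76.6 on all arrays.

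Sfrp1, a Frizzled-related protein of the same subfamily as Sfrp2, had the opposite sign. Its probe at chr16:73031711-73031770 in rn4 is printed because Sfrp1 had the lowest mean ratio among the 10 genes.
Sfrp1 A_44_P513059: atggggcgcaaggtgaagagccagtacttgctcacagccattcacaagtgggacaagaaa
The signal of Sfrp1 was 1230, 1449, 1671 and 3565 in mucosa cells, against 6591, 3527, 4491 and 4417 in bulb cells. The mucosa signal was the lower one on each array, and the groups overlapped only at array 4 of the mucosa cells. The ratios were -2.42, -1.28, -1.43 and -0.31, with a mean of -1.36 ± 0.86 (SD, n = 4). The limma adjusted p was 0.0782, so Sfrp1 was not called. It was called with array weights (0.0437) and with the channels unpaired (0.0383). The brightest Sfrp2 probe lay above Sfrp1 on each array, by 2.20 ± 0.89 on the log2 scale, a pair chosen after the values were seen.

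Frzb and Sfrp4 differed between arrays far more than most genes. Frzb, a Frizzled-related protein first known from cartilage, had a signal of 988, 916, 222 and 243 in mucosa cells, against 468, 366, 773 and 1083 in bulb cells. Its ratios were 1.08, 1.33, -1.80 and -2.15. Arrays 1 and 2 were higher in mucosa cells and arrays 3 and 4 were lower, so the mean of -0.39 ± 1.84 (SD, n = 4) describes no single array, and its limma adjusted p was 0.754. The Frzb probe of 60 bases spans chr3:63361004-63374245 in rn4, a stretch of 13242 bases.

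Sfrp4, another Frizzled-related protein, showed the same split at both probes that could be measured. The brightest, A_44_P292745, had a signal of 1880, 3158, 662 and 1800 in mucosa cells, against 1482, 783, 3939 and 3587 in bulb cells. Its ratios were 0.34, 2.01, -2.57 and -0.99, with a mean of -0.30 ± 1.95 (SD, n = 4) and a limma adjusted p of 0.821. The second probe, A_44_P290187, starts 5557 bases away and had ratios of 0.64, 1.06, -0.99 and -1.43. The third, A_43_P16129, was well above background on 0 arrays in either channel and was not tested.

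The SD of Frzb was larger than that of 98.6% of all names, and that of Sfrp4 larger than that of 99.0%. A ratio above 0 on arrays 1 and 2 and below 0 on arrays 3 and 4 was found for 1783 names, or 5.59%. Among 9 lists of cell type markers, the macrophage and microglia list was the 1 list whose median followed that split. It is shown for that reason, chosen after the values were seen. Its median ratio was 0.56, 0.31, -1.28 and -1.75 on arrays 1 to 4, and the lysosomal marker Cd68 stood at 1.84, 0.75, -2.34 and -3.48. The mucosa channel as a whole also differed between these arrays. The median mucosa signal was 841.6 and 838.9 on arrays 1 and 2, against 567.2 and 597.5 on arrays 3 and 4. The share of mucosa spots well above background was 89.8% and 91.1%, against 82.8% and 86.3%. Whether the weaker mucosa channel had a part in the split was not tested.

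The summed signal of the 5 macrophage and microglia markers was 3690 to 6743 in mucosa cells, against 3855 to 10280 in bulb cells, and 0 of the 5 were called in either direction. None was below background throughout in either channel. Of the 5 markers, only Aif1 and Cd68 followed the split. Itgam, at 1.47, -0.27, -1.28 and -3.88, was below 0 on array 2. So was Csf1r, at 0.56, -0.38, -2.50 and -1.75 at its brightest probe, while its other probe had a mean of 0.27. Cx3cr1, a chemokine receptor of microglia, stood at -0.30, 0.61, -0.88 and -0.33. Outside this list, Igf2 of the meningeal markers and Npy of the glia markers also followed the split. Igf2 stood at 0.75, 0.55, -1.57 and -1.96, and Npy at 0.53, 0.26, -0.37 and -0.25. Whether macrophages and microglia had a part in the ratios of Frzb and Sfrp4 was not tested.

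**Figure D4:**
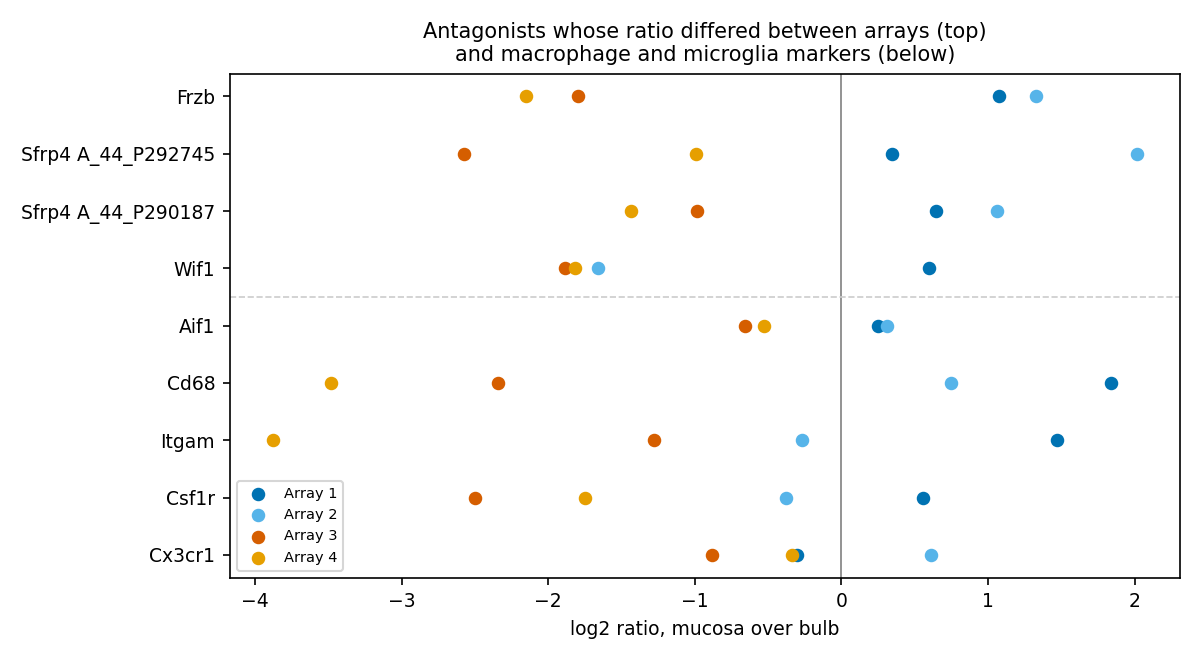
Log2 ratio of mucosa over bulb on each of 4 arrays for Frzb, 2 Sfrp4 probes and Wif1 (upper rows) and for 5 macrophage and microglia markers (lower rows), a list chosen after the values were seen. Frzb, both Sfrp4 probes, Aif1 and Cd68 lie above 0 on arrays 1 and 2 and below 0 on arrays 3 and 4.

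Wif1, which binds Wnt ligands outside the cell, was lower in mucosa cells on 3 arrays and higher on array 1. Its signal was 513, 134, 180 and 158 in mucosa cells, against 339, 423, 663 and 559 in bulb cells. The ratios were 0.60, -1.66, -1.88 and -1.82, and the mean of -1.19 ± 1.20 (SD, n = 4) had a limma adjusted p of 0.180. Without replicate 1, the array that differed from the others, the ratio was -1.79 and the limma adjusted p 0.0424. Without replicate 2, 3 or 4 the limma adjusted p was 0.391, 0.375 and 0.389.

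The ligands were measured at low to middling signals, and neither passed the test. Wnt5a, which acts mainly through branches that do not use beta-catenin, had a signal of 217, 193, 130 and 201 in mucosa cells, against 89.5, 92.7, 139 and 129 in bulb cells. All 4 mucosa arrays but only 2 bulb arrays were well above background, and the groups overlapped at array 3. Wnt5a thus passed the filter on dim signals through the mucosa channel alone, so that a difference was built into its being tested. The ratios were 1.28, 1.05, -0.10 and 0.63, with a mean of 0.72 ± 0.60 (SD, n = 4) and a limma adjusted p of 0.190. By the deposited ratio the mean was 2.06 ± 1.94, so the size again depends on the treatment of dim signals.

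Wnt4, a ligand known from kidney and reproductive tract development, had a signal of 560, 601, 1199 and 499 in mucosa cells, against 686, 785, 800 and 955 in bulb cells. The groups overlapped, and array 3 had the opposite sign to the others. The ratios were -0.29, -0.38, 0.58 and -0.94, the mean was -0.26 ± 0.63 (SD, n = 4), and the limma adjusted p was 0.623. The 95% interval of -0.95 to 0.44 covers both a level about as high and a moderate difference in either direction.

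Other genes of the Wnt pathway were read from 5 lists of 110 genes, of which 79 were tested. Of these, 6 were called higher and 1 lower in mucosa cells, or 8.86%, close to the 6.62% of all names. Their median ratio was 0.08. A single sign on all arrays was seen for 34 of the 79, beside a share of 33.6% over all names.

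Among 16 other ligands and 7 other secreted modulators, 0 were called. The largest ratio in the ligand list was that of Wnt10b, at -1.07 ± 0.68 (limma adjusted p = 0.0961), and -2.29 by the deposited ratio. The largest in the modulator list was that of Igfbp4, an insulin-like growth factor binding protein that also interferes with Wnt receptors, at 1.55 ± 1.37 (limma adjusted p = 0.134; SD, n = 4).

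Of 19 genes for receptors and Wnt secretion, 2 were called higher and 1 lower in mucosa cells. The Frizzled receptor gene Fzd9 was higher at 1.52 ± 0.64, with a limma adjusted p of 0.0340, and at 2.24 by the deposited ratio. The glypicans, cell surface heparan sulfate proteoglycans that bind Wnt proteins, had calls in both directions. Gpc4 was higher in mucosa cells at 1.45 ± 0.57 (limma adjusted p = 0.0326), and Gpc3 was lower at -2.80 ± 1.20 (0.0209; SD, n = 4), or -3.42 by the deposited ratio. Fzd9 was not called without replicate 1, 2 or 4 (highest adjusted p = 0.127), Gpc3 without replicate 2, 3 or 4 (0.0851), and Gpc4 without any 1 of the 4 arrays (0.113).

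Of 23 genes that act inside the cell around beta-catenin and planar polarity, 2 were called, both higher in mucosa cells. Daam2, a formin that binds Dishevelled, had ratios of 2.84, 2.63, 2.78 and 1.89, with a mean of 2.54 ± 0.44 (SD, n = 4) and a limma adjusted p of 0.00446, and it stayed called without any 1 array. Prickle1, a planar cell polarity protein, stood at 1.495 ± 0.63 (limma adjusted p = 0.0347) and was not called without any 1 of the 4 arrays (0.0556 to 0.130). Ctnnb1, the gene of beta-catenin itself, was at -0.36 ± 0.57 (limma adjusted p = 0.470) at its brightest probe and at 0.48 at the other.

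Of 14 target genes beside Axin2, 2 were called, both higher in mucosa cells and thus opposite to Axin2. The list as a whole did not go with these 2 genes. Its median ratio was -0.29, and the median was -0.12, -0.16, -0.22 and -0.14 on arrays 1 to 4. Ccn4 (Wisp1 on the array), a matricellular protein first found as a Wnt-induced gene, had ratios of 4.94, 5.28, 4.36 and 4.50, with a limma adjusted p of 0.00141. Ccn5 (Wisp2 on the array), its relative, had ratios of 2.39, 2.22, 2.09 and 2.06, with a limma adjusted p of 0.00393. Both stayed called without any 1 array. Lef1, a transcription factor of the pathway and one of its targets, had ratios of -2.99, -1.21, -3.69 and -0.69. They were negative on all arrays like those of Axin2, but the mean of -2.15 ± 1.42 (SD, n = 4) was not called, with a limma adjusted p of 0.0671. Tcf7, which encodes TCF1, had -0.70 ± 1.20 (limma adjusted p = 0.4002) with a positive ratio on array 1.

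**Figure D5:**
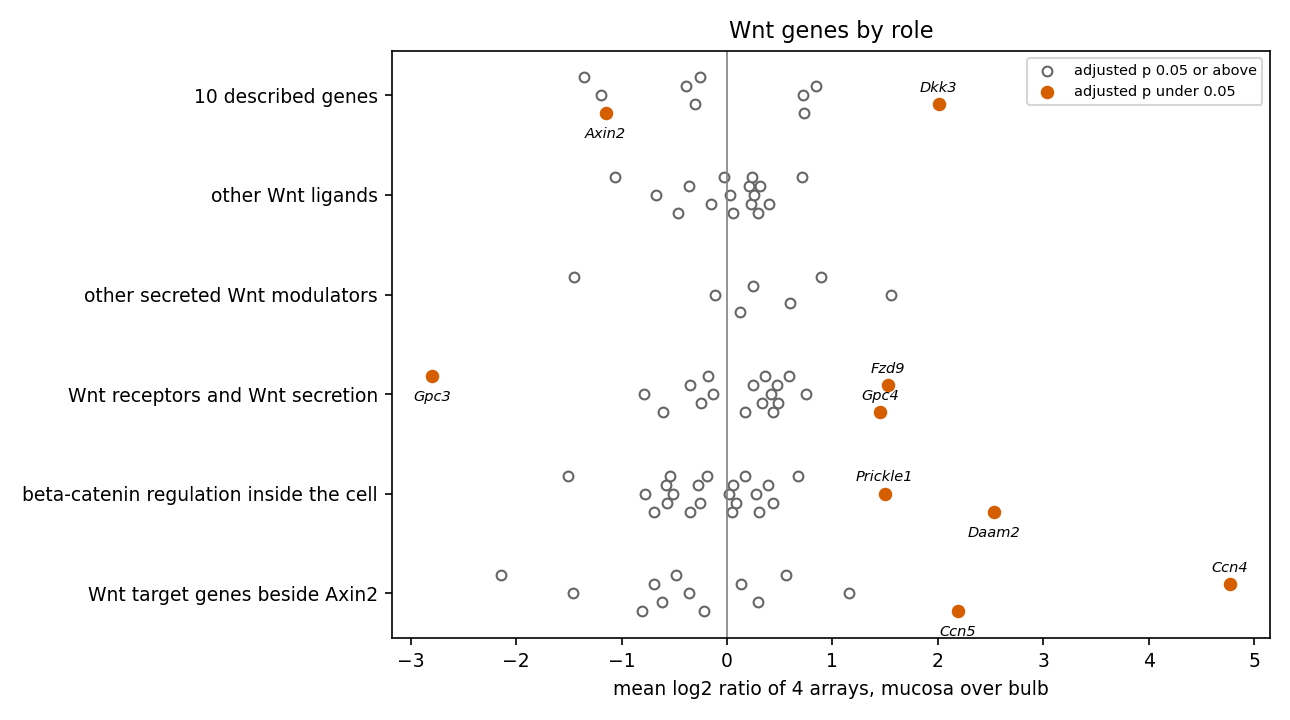
Mean log2 ratio of mucosa over bulb (horizontal axis) for the 10 described genes and for 79 other Wnt pathway genes in 5 lists (rows; vertical offsets within a row only separate points). Filled points passed the test: Dkk3, Fzd9, Gpc4, Prickle1, Daam2, Ccn4 and Ccn5 on the mucosa side, Axin2 and Gpc3 on the bulb side.

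The genes whose 4 ratios were nearest to those of the called members were found among 8825 gene symbols. Nearest to Axin2 was Map2k1, a kinase of the MAP kinase cascade, at a Euclidean distance of 0.246 on the log2 scale, with ratios of -1.08, -0.72, -1.73 and -1.08. Within a distance of 1 of Axin2 there were 223 of the 8825 symbols. Nearest to Dkk3 was Ppp1r14c, an inhibitor of protein phosphatase 1, at 0.645, and 7 symbols lay within a distance of 1.

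Promoter sequence was read for the members because Axin2 and several antagonists are known as genes that TCF and LEF factors can bind. RefSeq windows of 300 bases in the GRCr8 build, from 250 bases before a gene's start, were matched for 7 of the 10 genes. They were searched for CTTTGA, a core of the TCF and LEF motif, on both strands, a motif settled on after the sequences had been seen. It occurs in 16.1% of 33469 such windows, and 1.85% hold 2 or more matches. Of the 7 genes, Axin2 and Dkk1 held it, with 2 matches each, and they are shown because they had opposite signs in the ratios above. The match is in capitals, and the sequences run 5′ to 3′ on the strand of the gene, with TCAAAG as the motif on the other strand. The Axin2 window lies within the annotated span of the gene and not at its outermost start.
Axin2 chr10:94398541-94398570: ctcagatttcgcCTTTGAaaaagctgtgtc
Axin2 chr10:94398641-94398670: tttactttcttgCTTTGAtgttgggtagat
Dkk1 chr1:237798786-237798815: gaggggagagtgTCAAAGtcctcccagctt
Dkk1 chr1:237798729-237798758: ctcctcccaaagCTTTGAaatcccatccct
A match describes these letters only, and the arrays measured no binding.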

How the data were processed

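Per the file headers the scanner output comes from Agilent Feature Extraction 10.5.1.1, while version 9.1 stands in the submitters' processing notes. The deposited mean spot signals and local backgrounds are linear, unnormalized intensity values. The processed intensity signals had background subtracted and dyes normalized in that software, per the file headers. As deposited, the ratio of Cy5 to Cy3 is in log10 units, and the deposited value table holds the same log10 values at all 45018 features, so its scale and direction are known. Its column medians were 0, 0, 0 and 0.000422. Per the labels' protocols, cDNA was amplified by PCR with an undisclosed procedure, which can change the ratio of transcripts. Coordinates of probes are those of rn4, per the file headers, and no annotation of exons was used here. The arrays shared 1 slide and 1 scan time, which therefore could not be tested as batches.

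Mean signals were corrected with normexp (offset 50) and normalized by loess within arrays (limma 3.58.1, R 4.3.3). Control and outlier spots had weight 0, and spots of a probe were averaged. Signals printed per channel were also scaled between arrays with Aquantile, which leaves ratios as they are. Tested probes had a share of at least 0.5 of their spots well above background in 1 or both channels of 3 or more arrays, which kept 36749 probes and removed 4263. The probe of highest mean signal stood for a gene name in every alternative except where probes were averaged. The ratio within an array is the paired difference. It was tested for a mean other than 0 by lmFit and eBayes (6.37 degrees of freedom after moderation) and Benjamini-Hochberg adjustment. Precision is limited by the number of arrays. For a probe never well above background in bulb cells, the printed fold sets the mean mucosa signal against a floor taken per array. That floor is the higher of the bulb signal and the lowest signal of probes well above background. It is not a detection limit.

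The named genes were all 10 members with every probe, up to 4 called genes of largest ratio per list of other Wnt genes (or the largest where 0 were called), Lef1, Tcf7, Ccn4 and Ctnnb1, and the gene nearest to each called member. The members and lists were chosen with earlier results of these data known. The fit was tested on simulated ratios. It returned the simulated ratios without bias, but how many changed genes it called depended on the noise that was simulated. With noise as large as each gene's moderated SD it called most of the larger changes and few of the smaller ones. With the plain SD of each gene's 4 ratios, which was the noise tried first, it called none of the genes to which a change of either size had been added, and the moderated SD was adopted after that result. The moderated SD favours this fit, so the simulation does not show how many real changes were missed. Alternatives changed the background correction, signals, normalization, filter, probes, weights, variance, pairing, GC trend and replicates. Fits of the other Sfrp2 and Sfrp4 probes under these alternatives were added after seeing the data.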

Additional observations from a re-analysis of the deposited data

Results flagged for a closer look

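Of 25 sets of 4 values examined for a single array far from the others, 1 stood out, and chance gives about 1 in 20. Wif1 had a ratio of 0.60 on array 1, against -1.66, -1.88 and -1.82 on arrays 2 to 4, and the gap to the nearest of the others took up 0.910 of the whole range.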

How the results depend on the processing

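The number of Wnt genes called higher in mucosa cells was 1, and 2 with the mean over probes or with median centring. Under the mean over probes the added call is Sfrp2 (1.93), through 2 probes that were above background on 0 bulb arrays. With median centring the added call is Sfrp2 at its brightest probe (1.06, limma adjusted p = 0.0410). The number called lower was 1. It was 2 with array weights or with no replicate block (channels unpaired), and 0 with the processed signals, the deposited value table or median centring. With 1 array left out, each count was 0 to 1. The gene called lower without replicate 1 was Wif1, while Axin2 was not called without any 1 of the 4 arrays. Of the other Wnt genes, 6 were called higher, and 3 to 4 with 1 array left out. The 1 called lower became 2 with no replicate block and 0 to 1 with 1 array left out. No other setting moved these 4 counts by over 1.5 times. With no replicate block, 3482 names were called in all, against 2110 in the paired fit. Leaving out replicate 1, 2, 3 or 4 left 561, 568, 1065 and 924 names called.

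Sfrp4 turned to 0.40 and Frzb to 0.18 with array weights, as did the second Sfrp4 probe, A_44_P290187, to 0.22. With 1 array left out they ranged from -1.07 to 0.45, from -0.96 to 0.20 and from -0.59 to 0.24. Ctnnb1 turned to 0.061 with the mean over probes. None of these was called in any setting. Fewer arrays leave fewer degrees of freedom, and the cause of the other shifts was not tested. Median centring moved the split of all calls to 59.6% higher, against 48.9%. With the processed signals or the deposited table, Wnt10b had -2.29, Fzd9 2.24, Gpc3 -3.42 and Dkk1 1.20, each on the same side of the threshold as before. Gpc4 (1.60) and Prickle1 (1.51) were no longer called there, with limma adjusted p of 0.0631 and 0.0664. Dim signals limit Wnt5a and 2 Sfrp2 probes, whose ratios were 0.51 to 2.06, 2.70 to 6.73 (A_44_P503115) and 1.92 to 5.77 (A_44_P503116) over the settings run. Wnt5a and Wnt10b had no value under the strict filter.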
